A study of Mus musculus with 6 samples.

Results

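The S100A genes encode small calcium-binding proteins, and 10 of them (S100a1, S100a4, S100a6, S100a8, S100a9, S100a10, S100a11, S100a13, S100a14 and S100a16) were followed here among the 53465 genes counted in 4T1 cells. They were taken from a list of symbols, and all 10 were found by their Ensembl identifiers on chromosome 3. 4T1 is a mouse mammary carcinoma line, and the samples were 3 libraries of parental (P) cells and 3 of an axitinib-resistant (AxR) variant of the same cells. Axitinib is a small molecule inhibitor of VEGF receptors. The AxR variant was obtained from metastases that arose in Balb/c mice dosed with the drug at 100 mg/kg/day before and after removal of the primary tumor, and the lesion-derived cells were then cultured with 0.5 μM axitinib for over 2 months. By the paper, P cells received vehicle, and the sample labels list a drug treatment for AxR samples only, although the growth label of every sample names 0.5 μM axitinib. The AxR group is therefore 1 resistant line, whether it is a single clone is not given in the sources used here, and drug exposure, passage through the animal and separate culture cannot be told apart. Nothing states that the 3 libraries of a line came from separate cultures, so p-values measure only the spread between these libraries, which may be technical.

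S100 proteins are a vertebrate family of EF-hand proteins that mostly work as dimers, change shape when they bind calcium, and then bind other proteins inside the cell or, once released, receptors on its surface. Most of their genes sit side by side in a cluster that also holds the genes of the epidermal barrier. Several members are studied in breast cancer spread, above all S100a4, also called metastasin, while S100a8 and S100a9 form calprotectin, an abundant protein of neutrophils. In AxR cells, S100a16 was 28.9-fold and S100a4 was 2.04-fold higher than in P cells, S100a11 was slightly higher and S100a10 was slightly lower. S100a8 and S100a9 were at or near 0 in both lines. The fold of S100a16 rests on 9 to 18 counts in P libraries. Other tested genes of chromosome 3 had a median log2 fold change of 0.32, and S100a11 rose by about as much (0.25). Against that median, S100a16 and S100a4 were still called higher, and S100a10, S100a13 and, less firmly, S100a6 were called lower.

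The libraries held from 15495260 to 17294525 estimated counts. Levels are given as counts per 1000000 of the normalized library size (CPM), on which the floor of 3 counts lay from 0.171 to 0.196. The 6 epithelial marker genes (Krt8, Krt18, Krt7, Krt14, Epcam and Cdh1) were detected in both lines, and their summed level was between 1879 and 2097 CPM in P libraries and between 3000 and 3180 CPM in AxR libraries. Of 14 neutrophil and myeloid markers, 11 had at most 3 counts in every library, among them Ptprc, Itgam, Ly6g, Csf3r, Mpo and Elane. The summed level of these 14 was between 6.20 and 8.09 CPM in P and between 16.4 and 17.02 CPM in AxR libraries, most of it from Cd68 and Cd14, and the part of such cells in any change was not tested. Markers of fibroblasts, endothelium and lung epithelium each summed to at most 1.02 CPM in any library.

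The 10 genes lie within 3053610 bases of chromosome 3 (GRCm38, chr3:90511034-93564643). Most of them form a tight group in the order S100a1, S100a13, S100a14, S100a16, S100a4, S100a6, S100a8 and S100a9, and S100a11 and S100a10 follow 2824766 bases further on, beyond the genes of the cornified envelope. S100a1 and S100a13 face away from each other across 42 bases. Sequences upstream of the start sites are shown for S100a16 and S100a4, which had the highest fold changes of these genes. RefSeq (GRCm38.p6) gave start windows for 8 of the 10 genes and 9 windows in all, with none for S100a10 and S100a14. S100a16 has 2 of these start sites, and the second lies inside an intron of its longer transcripts. Each line gives the 250 bases before a start on the plus strand, 5′ to 3′, with letters that match a searched motif in capitals.
S100a16 first start, chr3:90537004-90537253: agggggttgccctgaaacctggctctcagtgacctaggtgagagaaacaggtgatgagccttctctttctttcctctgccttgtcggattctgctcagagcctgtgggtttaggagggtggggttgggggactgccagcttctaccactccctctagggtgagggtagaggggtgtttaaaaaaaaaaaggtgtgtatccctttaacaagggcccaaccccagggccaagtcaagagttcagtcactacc
S100a16 second start, chr3:90540896-90541145: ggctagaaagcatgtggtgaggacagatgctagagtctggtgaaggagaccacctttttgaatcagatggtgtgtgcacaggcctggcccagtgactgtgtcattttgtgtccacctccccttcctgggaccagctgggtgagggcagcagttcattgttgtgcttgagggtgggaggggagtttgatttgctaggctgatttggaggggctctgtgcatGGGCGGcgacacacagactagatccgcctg
S100a4, chr3:90603520-90603769: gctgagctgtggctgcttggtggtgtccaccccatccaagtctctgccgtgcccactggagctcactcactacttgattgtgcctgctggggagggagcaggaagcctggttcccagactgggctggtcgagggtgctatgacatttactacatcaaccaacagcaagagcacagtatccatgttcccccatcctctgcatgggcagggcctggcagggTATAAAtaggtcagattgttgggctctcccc

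The motifs searched on both strands, from 250 bases before to 50 bases after each start, were the AP-1 site with the letters TGACTCA, the C/EBP site with the letters TTGCGCAA, the STAT site with the letters TTCNNNGAA, the interferon-stimulated response element and the NF-kB site. The TATA box, with the letters TATAAA, and the GC box, with the letters GGGCGG, were searched in the same way, and none of the matches found overlap each other. The first S100a16 window held none of them, the second held a GC box, and the S100a4 window held a TATA box at position -31. S100a8 had a TATA box at position -30. In S100a9 the TATA letters lay at position 0, on the start itself, and a GC box match at position -223. The S100a11 window held 2 AP-1 and 3 GC box matches. None of the 9 windows held the C/EBP, STAT, response element or NF-kB letters. Of all 32851 mouse windows, 5.2% held the AP-1 letters, 0.183% those of C/EBP, 8.3% those of STAT, 3.44% the response element, 1.63% NF-kB, 13.6% the TATA box and 35.7% the GC box. The matches describe these windows and are no evidence of binding.

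**Figure D1:**
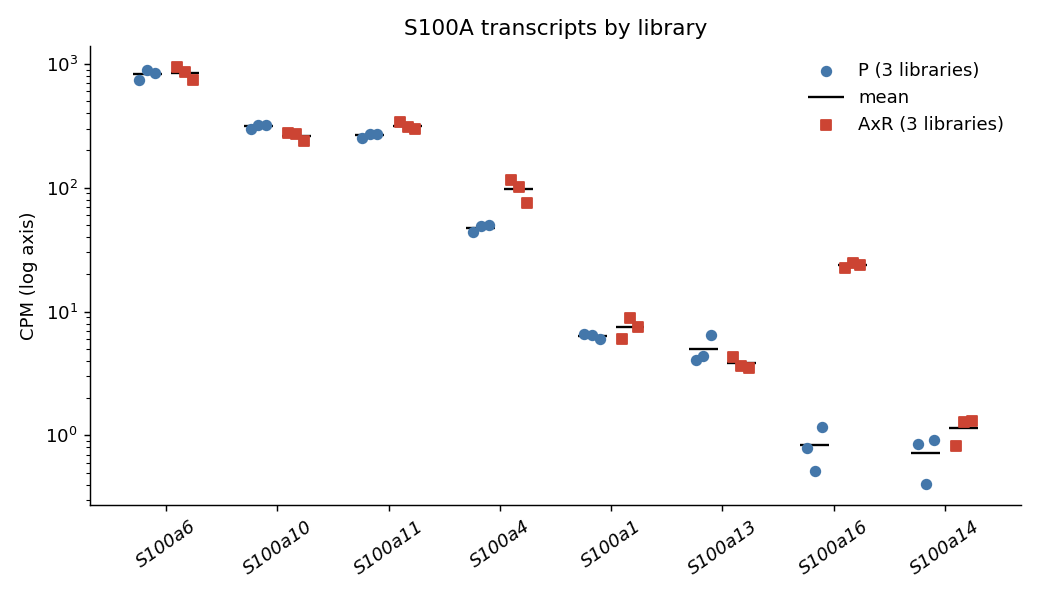
Level of each tested S100A transcript in the 3 P libraries (circles) and the 3 AxR libraries (squares), in CPM on a log axis, with a bar at the mean of each line. S100a16 rises from near 1 CPM to the low 20s, S100a4 separates the lines, and S100a6 overlaps between them. S100a8 and S100a9, at 1 count or fewer in every library, are not drawn.

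Of the 10 genes, 8 had enough counts to be tested for a difference between the lines, with edgeR's quasi-likelihood test over 13550 genes and Benjamini-Hochberg adjustment. At an adjusted p under 0.05, 3 of the 8 were higher in AxR cells (S100a16, S100a4 and S100a11) and 1 was lower (S100a10). Over all genes tested, 32.8% were higher, 30.8% were lower and 63.5% were called in either direction, so these shares lie near or below the background and are no result about the family. The median log2 fold change of the 8 was 0.24, against 0.01 over all genes tested. S100a14 and S100a16 passed the filter on low counts only through the AxR libraries, since in each gene 2 of the 3 P libraries reached the 0.615 CPM that the filter asks of 3 libraries. The log2 fold changes of the 8 genes ran from -0.39 (S100a13, not called) to 4.85 (S100a16), with S100a4 next highest at 1.03. Those of the 709 other tested genes of chromosome 3 ran from -4.53 to 7.25, so this spread is no trait of the family.

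S100a16 encodes a broadly expressed member of the family with an unusual first EF hand (ENSMUSG00000074457.10, chr3:90537254-90543151, plus strand). Its level was 0.790, 0.520 and 1.17 CPM in P replicates 1 to 3, and 22.5, 24.8 and 24.0 CPM in AxR replicates 1 to 3. Every AxR library was far above every P library, and no P library had more than 18 counts. The log2 fold change was 4.85 (standard error (SE) 0.17, 95% interval 4.50 to 5.21, edgeR adjusted p = 4.09e-12). It ranked 46 of 13550 genes tested by log2 fold change, and 7 of the 717 tested on chromosome 3. Since S100a16 passed the filter only through the AxR libraries, where it is high, its rank and p-value are no independent support. With no low-count filter its log2 fold change was 4.85. Leaving out single libraries gave values between 4.597 and 5.18.

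S100a4 binds the heavy chain of nonmuscle myosin IIA and is linked to cell motility and metastasis (ENSMUSG00000001020.8, chr3:90603771-90606045, plus strand). It was at 43.6, 48.7 and 50.1 CPM in the P libraries and at 115, 101 and 74.8 CPM in the AxR libraries. The lines did not overlap, and the AxR libraries spread over a wider range than the P libraries. The log2 fold change was 1.03 (SE 0.17, 95% interval 0.61 to 1.45, edgeR adjusted p = 0.00241). By log2 fold change S100a4 ranked 1052 of 13550 genes tested, and 108 of the 717 tested on chromosome 3. Gm42674, an annotated gene on the same strand that overlaps S100a4, had at most 1.94 estimated counts in any library, so few reads were assigned to it.

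S100a11 and S100a10 are partners of annexins, proteins that bind membranes in the presence of calcium. S100a11 (ENSMUSG00000027907.4, chr3:93520488-93526287, plus strand) pairs with annexin A1, and it was at 252, 273 and 269 CPM in P and at 341, 309 and 299 CPM in AxR libraries. Its log2 fold change was 0.25 (SE 0.056, edgeR adjusted p = 0.000998), with no overlap between the lines. Its estimated counts were not whole, so some of its reads were shared with other annotated sequences and its level depends on how RSEM divided them. S100a10 (ENSMUSG00000041959.14, chr3:93555080-93564643, plus strand), the calcium-insensitive member that pairs with annexin A2, lies 28792 bases away. It was at 295, 323 and 318 CPM in P and at 277, 273 and 240 CPM in AxR libraries, a log2 fold change of -0.25 (SE 0.059, edgeR adjusted p = 0.00194). The 2 neighbours thus moved in opposite directions by similar amounts. For each of the 4 genes called, the exact two-sided permutation p was 0.1, the lowest value this design can give. The same lack of overlap was seen in 68.3% of the genes tested.

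S100a6, or calcyclin, was the most abundant of these transcripts (ENSMUSG00000001025.8, chr3:90612882-90624181, plus strand). It was at 745, 888 and 849 CPM in P and at 947, 865 and 739 CPM in AxR libraries, and the P range lay inside the AxR range. Its log2 fold change was 0.04 with a 95% interval of -0.18 to 0.26 (edgeR adjusted p = 0.748). S100a1, known for binding calcium pumps and channels of muscle, was at 6.63, 6.47 and 5.999 CPM in P and at 6.03, 8.80 and 7.45 CPM in AxR libraries. Its 95% interval on the log2 scale ran from -0.09 to 0.53 (edgeR adjusted p = 0.193), and without AxR replicate 1, its lowest AxR library, its log2 fold change was 0.35 (edgeR adjusted p = 0.0412), over all alternatives between 0.0412 and 0.634. S100a13, which takes part in the release of FGF1 from cells, was at 4.07, 4.39 and 6.52 CPM in P and at 4.32, 3.63 and 3.47 CPM in AxR libraries. Its interval ran from -0.79 to 0.02 (edgeR adjusted p = 0.0903), and without P replicate 1 its log2 fold change was -0.51 (edgeR adjusted p = 0.0427), over all alternatives between 0.0427 and 0.502. S100a14, an epithelial member, had between 7 and 23 counts per library and an interval from -0.10 to 1.43 (edgeR adjusted p = 0.116), which leaves both no change and a change of over 2-fold within reach.

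The subunits of calprotectin were not detectable at this depth. S100a9 had 0 counts in all 6 libraries, below the floor of 3 counts, which lay at 0.196 CPM in the shallowest library. S100a8 had 1 count in P replicate 3, 1 in AxR replicate 2 and 0 in the other 4. Of the 14 neutrophil and myeloid markers, 11 were likewise at or near 0, including Ly6g, Csf3r, Mpo, Elane and Ngp at 0 in every library. Cd68 and Cd14 of the same list were detected and rose, from 3.39 to 8.02 and from 3.52 to 8.39 CPM. Their log2 fold changes were 1.24 and 1.26 (edgeR adjusted p = 1.11e-06 and 6.06e-06). Cd68 lies on chromosome 11, whose tested genes had a median log2 fold change of 0.008. That of chromosome 18, which holds Cd14, was 0.50. In bulk RNA, fewer cells with a transcript and less of it per cell cannot be told apart, here and for the other genes.

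Levels between genes were compared as CPM per kilobase of merged exons (RPKM). S100a6 stood at 605 ± 53.9 RPKM (SD, n = 3) in P and 622 ± 76.5 RPKM (SD, n = 3) in AxR cells, above 99.6% of tested genes or more in each line. S100a11 followed at 519 ± 21.6 RPKM in P and 618 ± 43.1 RPKM in AxR cells, S100a10 at 258 ± 12.4 and 217 ± 16.8 RPKM, and S100a4 at 81.3 ± 5.81 and 166 ± 35.1 RPKM (SD, n = 3 each). In P cells, these 4 did not overlap in the order S100a6, S100a11, S100a10 and S100a4, whereas in AxR cells S100a6 and S100a11 overlapped. That overlap depends on the length used. Per kilobase of the longest annotated transcript, S100a6 was at 1057 in P and 1086 in AxR cells and S100a10 at 456 and 384, while S100a11 stayed at 519 and 618, so S100a6 did not overlap with S100a11 in either line and the order of the 10 genes was the same. S100a1 and S100a13 came next in P cells, at 9.17 and 6.98 RPKM, and overlapped. In AxR cells S100a16, at 14.7 ± 0.706 RPKM (SD, n = 3), moved past both, from position 7 to position 5 of the 10 genes and from above 10.7% to above 73.0% of tested genes. At position 7 in P cells its range overlapped that of S100a14. The shares of tested genes are no independent support, since S100a16 passed the filter only through the AxR libraries. S100a14 stayed below 1 RPKM in both lines. Very short transcripts lose part of their length to the size of the sequenced fragments, which RPKM on whole exons does not correct, and the longest annotated transcripts of the 10 genes measure between 498 and 1683 bases.

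The tested genes of chromosome 3 as a whole were shifted upwards in AxR cells, so each S100A gene was also set against that shift. Over the 709 tested genes of the chromosome outside the family, the median log2 fold change was 0.32, with 57.4% called higher and 11% lower, and the median shift was 0.31, 0.34 and 0.29 in AxR replicates 1 to 3. A second fit moved the expectation of each gene by the median of its own chromosome and tested the remaining change over all 13550 genes. Over all genes, 30.2% were above and 29.3% below their chromosome's shift at an adjusted p under 0.05, or 59.6% in either direction. Of the 8 S100A genes tested, 2 were above it (S100a16 and S100a4) and 3 were below it (S100a10, S100a13 and S100a6). S100a16 is counted here as a gene that passed the filter only through the AxR libraries. Of 42 other genes tested within 1000000 bases of the outermost members, 7 were above the shift and 17 below it. Among the 8 of these that lie between the outermost members, 1 was above and 5 were below. Lying below the shift is therefore no trait of the family. This fit takes the chromosome median as a fixed number, without an error of its own.

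**Figure D2:**
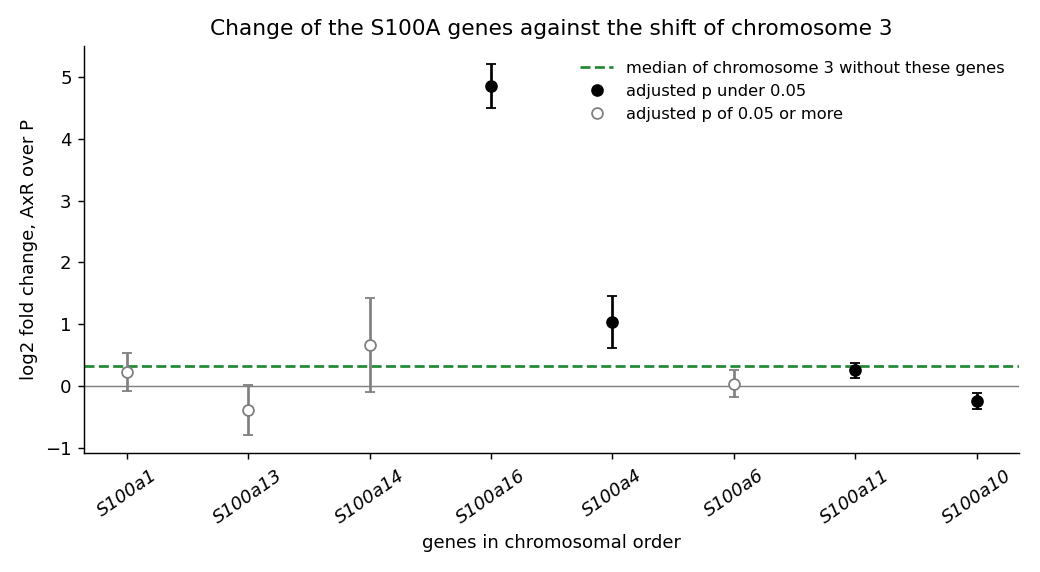
Log2 fold change of AxR over P for the 8 tested S100A genes in chromosomal order, with 95% intervals from edgeR's quasi-likelihood fit, filled where the adjusted p against 0 was under 0.05 and open otherwise. The dashed line is the median of 709 other tested genes of chromosome 3, at 0.32. S100a16 and S100a4 lie above it, S100a11 lies at it, and S100a10 and S100a13 lie below it.

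S100a16 remained 4.53 above the shift on the log2 scale (SE 0.17, edgeR adjusted p = 9.98e-12). S100a4 was 0.70 above it (SE 0.17, 95% interval 0.28 to 1.12, edgeR adjusted p = 0.0132). Without P replicate 2 the value for S100a4 was 0.71 with an adjusted p of 0.0672 from edgeR, the highest over all alternatives, the lowest being 1.66e-08. S100a11, which was called higher against 0, was -0.07 from the shift (95% interval -0.19 to 0.05, edgeR adjusted p = 0.289), so it moved by about as much as a typical gene of its chromosome. S100a10 fell below the shift by 0.57 on the log2 scale (SE 0.059, edgeR adjusted p = 9.27e-07) and S100a13 by 0.71 (SE 0.19, edgeR adjusted p = 0.00477). S100a6 did not pass the test against 0 but lay -0.29 from the shift (SE 0.096, edgeR adjusted p = 0.0300). That call was lost when P replicate 2, then P replicate 3, then AxR replicate 2 was left out (adjusted p = 0.0929, 0.0626 and 0.0741 from edgeR). It was also lost when the 25 nearest tested genes on each side set the shift (edgeR adjusted p = 0.0521). The intervals of S100a1 (-0.41 to 0.20) and S100a14 (-0.42 to 1.11) around the shift included 0.

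Within a line, the 4 abundant genes varied together. S100a4, S100a6, S100a10 and S100a11 were each lowest in replicate 1 among the P libraries, and each highest in replicate 1 and lowest in replicate 3 among the AxR libraries. In AxR replicate 3 they lay between -0.35 and -0.08 of the line mean on the log2 scale. The median of 191 other tested protein-coding genes with transcripts of at most 783 bases, the length of the longest of these 4, was -0.07 in that library, against -0.01 over all genes tested. In AxR replicate 1 the 4 genes lay between 0.07 and 0.27 above the line mean, and the short genes had a median of 0.02. Between the lines, those short genes had a median log2 fold change of 0.08. The part of transcript length in these values was not tested.

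Nearby genes gave the local background of the family. Within 1000000 bases of the outermost members, 42 other genes were tested, of which 21 rose (50%) and 9 fell (21.4%), the median log2 fold change being 0.26. The 8 of them that lie between the outermost members had a median of -0.06, with 1 called higher and 3 lower. Over the 709 tested genes of chromosome 3 outside the family, 57.4% were called higher and 11% lower. The nearest tested gene before S100a1 was Chtop, a chromatin protein gene, with 215 ± 5.63 CPM in P and 209.8 ± 5.47 CPM in AxR cells (SD, n = 3 each) and a log2 fold change of -0.04 (edgeR adjusted p = 0.492). S100a3, between S100a16 and S100a4, fell by 0.54 on the log2 scale (SE 0.12, edgeR adjusted p = 0.00126), from 8.37 ± 0.472 to 5.76 ± 0.384 CPM (SD, n = 3 each). S100a7a, the mouse counterpart of psoriasin and the next tested gene after S100a6, fell by 1.00 on the log2 scale (SE 0.13, edgeR adjusted p = 1.16e-05), from 16.97 ± 2.94 to 8.44 ± 0.963 CPM (SD, n = 3 each). Genes that rose and genes that fell thus lay side by side in the cluster. The other gene among the 3 lowest neighbours beside S100a7a and Tchh was Slc27a3, a fatty acid transporter family gene, which fell by 1.20 on the log2 scale (edgeR adjusted p = 0.000357). The 3 highest neighbours called were the predicted genes Gm9121, Gm10696 and Gm4858, at 1.02, 1.68 and 1.20 CPM on average in AxR cells and at 0.104, 0.216 and 0.186 CPM in P cells. All 3 passed the filter only through the AxR libraries, Gm9121 was at the floor in all P libraries, and no fold is given for them.

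**Figure D3:**
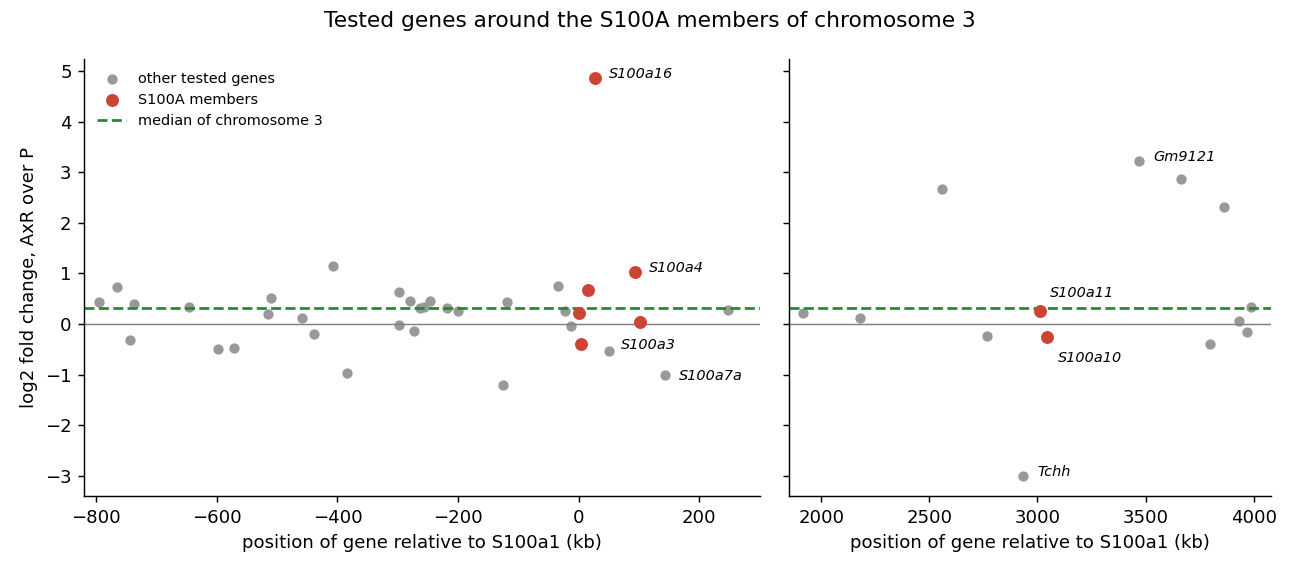
Log2 fold change of AxR over P for tested genes on both sides of the S100A cluster, plotted by position relative to S100a1 in kilobases, with S100A members in red, other genes in grey and the chromosome median as a dashed line. S100a16 stands alone near 5 in the left panel, S100a3 and S100a7a lie below 0 between and beside members, and Tchh lies near -3 in the right panel. The point of Gm9121 is a fitted value for a gene at the floor in P cells.

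The other S100 and S100-fused genes were counted in the same fit, in a list of 16 that also held S100pbp, which encodes a protein that binds S100P and is no S100 gene itself. Of the 16, 4 were tested, and 3 were called lower, namely S100a3, S100a7a and Tchh, where 30.8% of all genes tested were lower. S100a7l2 was not matched by symbol. Tchh encodes trichohyalin, a hair follicle protein with an S100-like start, and was at 3.02 ± 0.817 CPM in P and 0.364 ± 0.101 CPM in AxR cells (SD, n = 3 each). It passed the filter on low counts only through the P libraries, since 0 of the 3 AxR libraries reached 0.615 CPM, so its call is no support for a direction of the list. It was the nearest tested gene before S100a11. S100pbp was at 58.5 ± 2.05 CPM in P and 59.3 ± 5.89 CPM in AxR cells (SD, n = 3 each, edgeR adjusted p = 0.848).

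Receptors and binding partners of S100 proteins were measured alongside. Of 32 receptors, annexins and intracellular partners listed, 28 were tested, of which 12 rose and 12 fell, or 42.9% each. Over all genes tested, 32.8% were higher and 30.8% lower, and the list was not tested as a set. Ager, which encodes RAGE, the best known receptor for released S100 proteins, had at most 7 counts in any library. Tlr4, a receptor for calprotectin, rose by 0.38 on the log2 scale from 39.3 ± 0.734 to 51.0 ± 2.24 CPM (SD, n = 3 each, edgeR adjusted p = 8.75e-05). Bsg, a surface glycoprotein that binds S100a9, rose by 0.60 from 223 ± 8.51 to 338 ± 20.7 CPM (SD, n = 3 each, edgeR adjusted p = 1.56e-07). Alcam, an adhesion molecule, fell by 1.58 on the log2 scale from 124 ± 12.9 to 41.5 ± 3.71 CPM (SD, n = 3 each, edgeR adjusted p = 2.52e-09).

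All 8 annexins were tested, and 4 were higher and 4 lower, where 63.5% of all genes tested were called in either direction. The annexins were not tested as a set. Anxa2, the partner of S100a10, fell by 0.51 on the log2 scale (SE 0.051, edgeR adjusted p = 5.00e-07), from 603 ± 25.9 to 423 ± 20.8 CPM (SD, n = 3 each). Anxa1, the partner of S100a11, fell by 0.19 (edgeR adjusted p = 0.0269), and Anxa6 rose by 0.74 (edgeR adjusted p = 1.15e-08). Ahnak, a giant scaffold protein that binds the S100a10 and annexin A2 complex, fell by 0.82 on the log2 scale (SE 0.061, edgeR adjusted p = 2.63e-08), from 5732 ± 98.1 to 3240 ± 313 CPM (SD, n = 3 each). The plasminogen activators, whose product plasmin forms where that complex holds plasminogen on the cell surface, went in opposite directions. Plau fell by 1.55 on the log2 scale, from 149 ± 5.55 to 51.0 ± 2.57 CPM (SD, n = 3 each, edgeR adjusted p = 8.44e-12), and Plat rose by 0.94 from the lower level of 2.96 ± 0.226 to 5.69 ± 0.491 CPM (SD, n = 3 each, edgeR adjusted p = 7.98e-05).

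Among the partners of the other members, Myh9, the myosin heavy chain that S100a4 binds, rose by 0.62 on the log2 scale (SE 0.048, edgeR adjusted p = 2.70e-08), from 799 ± 10.5 to 1230 ± 61.1 CPM (SD, n = 3 each). Cacybp, a ubiquitin ligase adaptor that binds S100a6, fell by 0.29 (edgeR adjusted p = 0.000313), by as much as the median gene of its chromosome. Fgf1, the growth factor released with S100a13, had between 6 and 10 counts in P and between 21 and 36 counts in AxR libraries and passed the filter only through the latter, since 1 of the 3 P libraries reached 0.615 CPM, while Syt1, the third protein of that release complex, had at most 1 count in any library.

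The ratio of an S100A transcript to that of its partner within a library does not depend on the scaling of libraries. The log2 ratio of S100a10 to Anxa2 was -0.96, -0.96 and -0.93 in P and -0.66, -0.66 and -0.73 in AxR libraries, so S100a10 fell less than its partner before any chromosome shift was taken out. For S100a11 to Anxa1 it was -0.81, -0.73 and -0.83 in P and -0.37, -0.41 and -0.25 in AxR libraries. In both pairs the lines did not overlap, with differences of 0.26 and 0.44 and an exact two-sided permutation p of 0.1 each (0.2 after Benjamini-Hochberg adjustment over the 4 pairs compared), in a design that cannot reach 0.05. The ratios of S100a4 to Myh9 (means -4.07 and -3.69) and of S100a6 to Cacybp (means 2.24 and 2.56) overlapped between the lines (exact permutation p = 0.2 each). The ratio of S100a8 to S100a9 could not be formed. These ratios still carry chromosome shifts, since each partner lies on another chromosome than the S100A genes. Beyond its own chromosome's shift, S100a10 fell further (-0.57) than Anxa2 (-0.28). S100a11 and Anxa1 lay at -0.07 and -0.19, S100a4 and Myh9 at 0.70 and 0.50, and S100a6 and Cacybp at -0.29 and -0.001. The part of these shifts in the ratios was not tested.

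**Figure D4:**
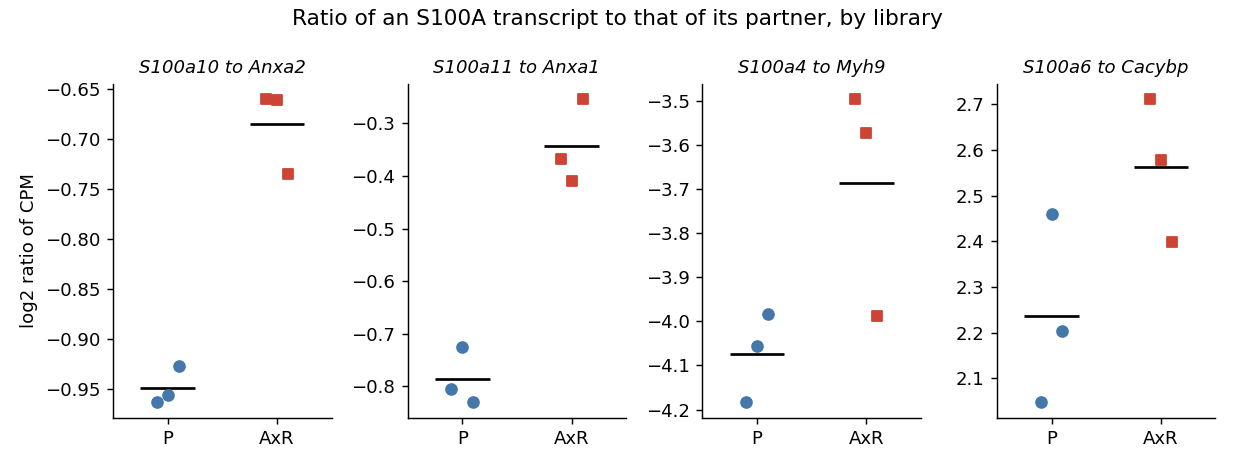
Log2 ratio of CPM of an S100A transcript to that of its binding partner in each library, with a bar at the mean of each line and a separate vertical scale for each pair. The AxR libraries lie above all P libraries for S100a10 to Anxa2 and S100a11 to Anxa1, and overlap with them for the other 2 pairs.

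The genes whose profile over the 6 libraries was most like that of S100a16 were found by the distance between log2 CPM values centred on each gene's mean. The 5 nearest were Oasl2, an interferon-induced gene, Camk2b, a calmodulin-dependent kinase, Klhdc7a, Mylk, the myosin light chain kinase, and Slc4a4, a bicarbonate transporter, none of them on chromosome 3. Oasl2 was nearest, at 1.72 ± 0.726 CPM in P and 46.6 ± 6.66 CPM in AxR cells (SD, n = 3 each), with a distance of 0.399. Camk2b was at 0.534 ± 0.124 and 14.9 ± 1.62 CPM, Mylk at 1.27 ± 0.425 and 28.7 ± 2.31 CPM, and Slc4a4 at 5.96 ± 0.974 and 116 ± 8.25 CPM (SD, n = 3 each). Klhdc7a was at the floor in P cells and at 6.23 ± 1.07 CPM (SD, n = 3) in AxR cells. Camk2b and Klhdc7a, like S100a16, passed the filter only through the AxR libraries. Over 6 libraries this likeness rests on the difference between the lines.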

How the data were processed

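Poly(A) RNA of 3 P and 3 AxR samples was made into stranded libraries and sequenced. By the submitters' processing notes and the paper, reads were checked with FastQC 0.11.5, aligned to GRCm38 with STAR 2.6.0a and GENCODE annotation, and quantified with RSEM 1.3.1. The authors deposited the estimated counts per gene, before filtering and normalization. The strand setting of RSEM is not given in the sources used here.

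The analysis rounded these counts, kept genes that passed filterByExpr, scaled libraries by their upper quartile and compared the lines in R 4.3.3 by the robust quasi-likelihood test that edgeR 4.0.16 offers, with no covariate. For the chromosome comparison, the median log2 fold change of each chromosome with at least 20 tested genes (S100A members left out) was added to the offset of the AxR libraries. Standard errors are the log2 fold change over the square root of the F statistic. Exact permutation tests were run on log2(CPM + 0.5) for single genes and on the log2 ratio of CPM, with nothing added, for the partner ratios. Symbols, positions and exon lengths came from GENCODE M21 of the same build, which held 53360 of the 53465 identifiers. Floors cover counting error only.

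The alternatives were TMM, library size only, DESeq2 1.42.0, limma-voom (limma 3.58.1), 2 other count filters, 3 other thresholds, the replicate number as a block, each library left out, 2 other references for the shift and, for levels per length, the longest transcript in place of merged exons. The members and lists were chosen with earlier results of these data known. Related genes were named when called at 0.5 or more in size on the log2 scale, with a fixed set of the best known partners, and neighbours by the 3 highest and 3 lowest values called and by adjacency. S100pbp and Syt1 were chosen after their values were seen, as was the comparison with short transcripts. Replicates of a line differed by more than sampling noise (chi-square over its degrees of freedom, 4.99 to 19.2), and all 6 libraries were kept.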

Additional observations from a re-analysis of the deposited data

How the results depend on the processing

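The S100A members called higher numbered from 2 to 4 over all alternatives. Members called lower numbered 0, against 1, where the call also needed a change of 0.5 or of 1 in size on the log2 scale (edgeR; 0 also at an unadjusted p under 0.05 and by DESeq2 and limma-voom), and 1 to 2 with each library left out, the second being S100a13 without P replicate 1. Members above the chromosome shift numbered 1, against 2, at an adjusted p under 0.01, at a change of at least 1, and with at least 10 counts in every library, a filter that removes S100a16 and S100a14. They numbered 1 to 2 with each library left out, S100a4 being lost without P replicate 2. Members below the shift numbered 0, against 3, at a change of at least 1 (edgeR; 0 also at an unadjusted p under 0.05 and by DESeq2 and limma-voom) and 2 to 3 with each library left out.

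Values that changed sign were those not called or near 0. The log2 fold change of S100a6 was -0.03 without P replicate 1 and -0.042 without AxR replicate 1 (range with each library left out -0.042 to 0.13), and the distance of S100a1 from the shift was 0.035 without AxR replicate 1 (range -0.22 to 0.035). The median of chromosome 3 lay between 0.30 and 0.38 over all alternatives.

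The replicate numbers did not pair the libraries, since deviations of same-numbered libraries from their line means had correlations of -0.02, -0.01 and -0.02, and 0 of the 6 correlated best with its own number. With the replicate number as a block, 3 members were higher, 1 lower, 2 above and 3 below the shift, and 4304 genes were higher and 4023 lower against 4441 and 4167. The low counts of S100a14 and of S100a16 in P cells limit what can be said of their sizes.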
